A study of Homo sapiens with 48 samples.

Results

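In HEK293 cells that express AT1R, 61 protein-coding genes were about level with control, in 4 libraries of each group, when EGFR and AT1R had been activated together for 6 h, and higher than control when this lasted 24 h. They were chosen from the counts by a rule on group means: a log2 ratio of mean CPM (the count over the library total, times 1000000) + 0.5, AII + EGF over control, of at least 0.59 (1.5-fold) at 24 h and between -0.25 and 0.25 at 6 h, with a mean of at least 5 CPM in the AII + EGF 24 h libraries. Of 60610 listed genes, 19934 were protein-coding and 11048 of these reached 5 CPM. Among them, 319 passed the 24 h limit, of which 187 lay above and 71 below the range allowed at 6 h, and 61 remained.

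HEK293 is a human embryonic kidney line, and the cells came from 1 clone, B6, that stably expresses AT1R and was obtained by limiting dilution under puromycin (2 µg/ml) and losartan (10 µmol/l). Poly(A) RNA was sequenced in 48 libraries, 6 for each of 8 groups: control, 1 nM AII, 10 µg/L EGF, and 1 nM AII with 10 µg/L EGF (AII + EGF), each for 6 h or 24 h in medium without serum. All groups therefore share the clone, the receptor transgene and the serum-free medium, and nothing in the labels says which libraries came from separate cultures, so p-values measure the spread between libraries, which may be technical. The transgene product AGTR1 had a median of 7166 CPM (3913 to 15975), all 11 HEK293 markers had a median of at least 1 CPM, as had 2 of 6 fibroblast, 1 of 3 proximal tubule, 0 of 3 leukocyte and 0 of 3 endothelial markers. Among the HEK293 markers, NEFM and NEFL had medians of 4510 and 942 CPM and the next highest, VIM, 272 CPM. The sum of these markers thus mostly follows NEFM and NEFL. At 24 h the summed level of the HEK293 markers averaged 6157 CPM without a stimulus and 9301 CPM with both, that of the fibroblast markers 50.7 and 49.4 CPM, and that of the proximal tubule markers 9.27 and 12.2 CPM. Their part in the results was not tested.

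AT1R is the type 1 receptor of angiotensin II (AII) and couples to G proteins, whereas the EGF receptor is a receptor tyrosine kinase. Both reach the nucleus through kinase cascades that switch on immediate-early genes, many of which encode transcription factors. Genes that respond only after those factors have been made form the delayed part of a growth factor response, and commonly encode adhesion, matrix, signalling and metabolic proteins.

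Library totals lay between 17.8 and 36.2 M counts. Sampling noise was not exceeded by 4 of 1128 library pairs, whose chi-square per degree of freedom was 0.397 (replicate 1 of control 6 h with replicate 2 of EGF 24 h), 0.401 (replicate 1 of EGF 6 h with replicate 4 of AII + EGF 6 h), 0.455 (replicates 2 and 6 of EGF 6 h) and 0.505 (replicate 2 of control 6 h with replicate 4 of AII 24 h), the next lowest being 2.02. The EGF 6 h pair counted as 1 sample in means, so n is 5 there, whereas ranges and medians of CPM cover all 6 libraries. The edgeR fit took all 48 libraries as separate samples, so its p-values treat the near-identical libraries as independent. In addition, AII 6 h replicate 6 lay at 0.873 and AII + EGF 6 h replicate 6 at 0.012 on a scale from 0 (the AII libraries) to 1 (the AII + EGF libraries) over 1568 genes. The rule used all 6 control and all 6 AII + EGF libraries at 24 h, but at 6 h it used control replicates 3 to 6 and AII + EGF replicates 1, 2, 3 and 5. For calls between EGF and AII libraries, values without these 10 doubtful libraries, or without some of them, are given below. Group means, ranges and medians of CPM include them, as does the edgeR fit of AII + EGF over control at 6 h.

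The higher level under AII + EGF at 24 h is what the rule selected and is given without a test. Its median over the 61 genes was a log2 ratio of 0.68 (0.59 to 2.12), a 1.66-fold difference in mean CPM, and 9 genes had a log2 ratio of at least 1. At 6 h the median was -0.02 (-0.24 to 0.23) in the libraries of the rule. With all libraries of both groups at 6 h, the edgeR fit gave a median log2 change of -0.24, with 15 of 61 above 0 and 0 called higher or lower (4.49% and 4.71% of all genes). At an unadjusted p under 0.05, 1 was higher and 20 lower (19.5% and 23.7% of all genes). The rule kept the genes near control at 6 h, so these 6 h counts describe the selection as well. This contrast includes control 6 h replicates 1 and 2 and was not fitted without the 10 doubtful libraries. The genes were mostly of low abundance, with a median of 15.1 CPM in the AII + EGF 24 h libraries (5.05 to 552), 20 of them below 10 CPM and 6 at 100 CPM or more. In 46 of 61 genes every AII + EGF 24 h library lay above every control 24 h library, against 3.61% of all 19337 tested genes, and in the edgeR fit 48 were called higher and 0 lower, against 1.33% and 1.12%. The rule used this contrast, so these counts describe the selection. In bulk RNA, a gene that rose in every cell and one that rose in a larger share of cells cannot be told apart.

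Just inside the 24 h limit lay LRRC75B and SSH3 (log2 ratios of 0.5851 and 0.5861), and just outside it TUBG2 and HES6 (0.5842 and 0.5830). The upper limit at 6 h separated SHMT2 and PREX1 (0.235 and 0.233) from HS6ST3 and SLC6A6 (0.252 and 0.261), and the lower limit APOBEC3B and EFR3B (-0.241 and -0.234) from ZNF541 and CPT1C (-0.251 and -0.254). The 5 CPM limit separated JAK3 and FMNL1 (5.05 and 5.15 CPM) from LRRN4CL and GFY (4.84 and 4.796 CPM). Membership at these limits rests on differences far smaller than the spread between libraries.

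The members were ordered by known role after they had been chosen, which serves the description and was not tested. Proteins of the matrix, of cell junctions and of the secretory route had 10 members: LAMB3, LGALS1, SEMA6B, ECM1, CHRD, CLDN4, F12, COL9A3, OVGP1 and DPP4. The lists of extracellular matrix genes and of integrins and adhesion proteins drawn up for the series held 1 member each. LAMB3, the beta 3 chain of laminin 332 that anchors epithelia to the basement membrane, had the largest ratio of all members. The gene (ENSG00000196878) lies at chr1:209614870-209652425 (GRCh38.p14, RefSeq). Its level at 24 h ran from 1.57 to 2.90 CPM in control (median 2.28), from 2.34 to 3.91 CPM under AII (median 3.02), from 3.17 to 4.89 CPM under EGF (median 3.70) and from 9.31 to 15.4 CPM under AII + EGF (median 11.2). Every AII + EGF library thus lay above all libraries of the other 3 groups, and the mean was 5.06-fold that of control and 2.96-fold that of EGF, the higher of the single stimuli. At 6 h the group means lay between 1.87 CPM (AII) and 2.27 CPM (control, with the doubtful replicates 1 and 2 at 3.46 and 2.56 CPM).

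LGALS1 encodes galectin-1, a secreted lectin that binds cell surface glycans, and lies at chr22:37675636-37679802. Its 24 h levels ran from 3.0 to 6.52 CPM in control (median 4.28) and from 8.62 to 15.9 CPM under AII + EGF (median 11.7). Under EGF they reached 6.49 CPM and under AII 6.47 CPM, so only the libraries with both stimuli left the control range upwards. At 6 h the group means of LGALS1 lay between 5.09 and 5.66 CPM, above the control mean of 4.37 CPM at 24 h. SEMA6B, a membrane semaphorin that guides axons, ran from 4.98 to 11.5 CPM in control (median 7.30) and from 15.2 to 20.6 CPM under AII + EGF (median 17.2). ECM1, an extracellular matrix glycoprotein, ran from 1.97 to 3.49 CPM in control (median 2.52) and from 4.73 to 6.15 CPM under AII + EGF (median 5.38). Neither gene had an AII + EGF library within the range of any other 24 h group.

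Lipid metabolism and transport had 6 members: PLAAT3, ATP8B3, PTGR1, ABCA3, PLPPR2 and PLA2G4A. PLAAT3, a phospholipase and acyltransferase at chr11:63574462-63616927, ran from 0.842 to 1.80 CPM in control (median 1.22), from 2.42 to 4.23 CPM under EGF (median 2.66) and from 4.95 to 7.71 CPM under AII + EGF (median 5.81). Its groups did not overlap between EGF and AII + EGF, nor between EGF and AII, which ended at 2.22 CPM. PLA2G4A encodes cytosolic phospholipase A2, which releases arachidonic acid from membranes. It ran from 7.84 to 11.4 CPM in control (median 10.1), from 9.05 to 18.1 CPM under EGF (median 14.1) and from 13.3 to 16.7 CPM under AII + EGF (median 15.4), so that EGF and AII + EGF overlapped widely. PTGR1, a prostaglandin reductase, ran from 4.86 to 7.76 CPM in control and from 10.9 to 13.3 CPM under AII + EGF.

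Amino acid, one-carbon and mitochondrial metabolism had 9 members: SHMT2, PHGDH, TRAP1, ACADVL, PCCB, PCK2, SFXN3, CKMT1A and CHAC1. They included the most abundant members per transcript length in the AII + EGF 24 h libraries: SHMT2 with 256, PHGDH with 193, TRAP1 with 99.2 and ACADVL with 62.5 CPM per kilobase of the canonical transcript, followed by the microtubule-binding protein EML2 with 45.5. PHGDH, the first enzyme of serine synthesis from glycolysis (chr1:119711934-119744215), ran from 186 to 297 CPM in control (median 222) and from 316 to 419 CPM under AII + EGF (median 348). SHMT2, which turns serine into glycine and a one-carbon unit in mitochondria (chr12:57229711-57234935), ran from 252 to 458 CPM in control (median 343) and from 461 to 684 CPM under AII + EGF (median 508). In both genes the AII + EGF libraries lay above all controls, PHGDH 1.56-fold and SHMT2 1.56-fold in the mean. TRAP1, a mitochondrial HSP90 chaperone, ran from 134 to 151 CPM in control and from 187 to 257 CPM under AII + EGF. CHAC1, which degrades glutathione and is a target of the transcription factor ATF4, ran from 1.41 to 2.09 CPM in control (median 1.62), from 3.08 to 6.99 CPM under EGF (median 3.87) and from 2.99 to 10.0 CPM under AII + EGF (median 4.2). Its AII + EGF libraries spread widely, with a mean of 5.56 ± 3.0 CPM (SD, n = 6). CKMT1A shares nearly all of its sequence with CKMT1B, so its count is uncertain.

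Signalling enzymes and adaptors had 9 members: RAPGEF3, PLEKHA4, JAK3, EFR3B, PREX1, SH2D3A, RND2, DOK4 and ADCY7. RAPGEF3 encodes EPAC1, a cAMP-activated exchange factor for RAP1, and ran from 1.84 to 4.18 CPM in control (median 2.89) and from 5.05 to 8.46 CPM under AII + EGF (median 6.78) at 24 h. ADCY7, an adenylyl cyclase that makes cAMP, ran from 8.16 to 17 CPM in control and from 16.6 to 21.5 CPM under AII + EGF, with a slight overlap. JAK3, a cytoplasmic tyrosine kinase of cytokine receptors, was among the least abundant members, from 0.965 to 3.60 CPM in control and from 3.45 to 5.93 CPM under AII + EGF. DOK4, a docking protein of receptor tyrosine kinases, ran from 12.7 to 21.5 CPM in control and from 21.8 to 30.4 CPM under AII + EGF. Cytoskeletal proteins had 5 members (EML2, LMOD1, TNS2, FMNL1 and SSH3), of which EML2 ran from 48.1 to 78.7 CPM in control and from 92.6 to 109 CPM under AII + EGF.

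Regulators of transcription had 6 members: BCL9L, ZBTB16, KLF7, NUPR1, ZNF385C and PER1. BCL9L, a coactivator of beta-catenin, had a log2 ratio of 0.91, with 5.64 to 11 CPM in control and 11.1 to 20.4 CPM under AII + EGF. NUPR1, a small stress-induced nuclear protein, ran from 12.1 to 23.9 CPM in control and from 24.7 to 41.8 CPM under AII + EGF. Both pairs of groups were separated by a narrow margin. Proteins of synapses and of membrane excitability had 5 members (SYT12, ATP1B2, DLG4, GRIK5 and SCN4A), among them SYT12, a synaptotagmin of vesicle release, with 1.28 to 3.26 CPM in control and 5.77 to 8.16 CPM under AII + EGF. Redox, metal and defence proteins had 6 members (GBP2, MT1X, APOBEC3B, HTATIP2, GLRX and SELENOM). The counts of MT1X and APOBEC3B are uncertain because their families hold near-identical copies. GBP2, an interferon-inducible GTPase, ran from 2.30 to 5.53 CPM in control and from 7.26 to 11.7 CPM under AII + EGF. The remaining 5 members were FUT1, CXorf38, KLHL36, CCDC134 and LRRC75B. Median log2 ratios of the 9 groups lay between 0.62 (the remaining 5) and 0.82 (redox, metal and defence), and thus close together.

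Beside the joint response, the single stimuli left the same genes in an ordered series at 24 h. The EGF mean lay above control in 61 of 61 genes, the AII mean above control in 60 and the EGF mean above AII in 59. The full order control, AII, EGF, AII + EGF was found in 58 of 61, the exceptions being TNS2, GRIK5 and SELENOM. EGF alone reached a median of 44.9% of the joint change (15.4 to 89.2%) and AII alone 17.8% (-0.32 to 47.4%). The joint change exceeded the sum of the single changes in 58 of 61 genes, the exceptions being SCN4A, COL9A3 and ADCY7. Apart from EGF against AII, these values share the control libraries with the rule. The full order, the percentages and the joint change also use its AII + EGF libraries. Because genes were chosen for a high AII + EGF level over control, these counts describe the selection. In the edgeR fit, EGF over control at 24 h was above 0 in 61 of 61 genes (46.6% of all genes). AII over control was above 0 in 58 (49.9%). The shares of all genes are no measure of excess, and the values are given without a test.

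The EGF share was highest in SCN4A, a voltage-gated sodium channel (89.2%), PLA2G4A (78.5%), CHAC1 (71.8%), ADCY7 (62.8%), COL9A3, a collagen of cartilage (62.4%), CXorf38 (61.7%), OVGP1 (61.5%), FUT1, a fucosyltransferase (59.7%), TRAP1 (58.9%) and CCDC134 (57.8%). It was lowest in GRIK5, a kainate receptor subunit (15.4%), LAMB3 (17.5%), F12, coagulation factor XII (18.3%), LGALS1 (20.2%) and SELENOM, a selenoprotein of the endoplasmic reticulum (22.8%). SCN4A ran from 3.16 to 4.93 CPM in control, from 3.75 to 7.22 CPM under EGF and from 5.41 to 6.79 CPM under AII + EGF. For SCN4A, the AII + EGF libraries thus lay within the EGF range, whereas LAMB3 stood far above it. The rule chose genes for a high AII + EGF level at 24 h, so the next counts describe the selection and the shares of all genes beside them are no measure of excess. In 12 of 61 genes every AII + EGF library lay above every EGF library (1.16% of all genes), in 33 above every AII library (2.76%), and in 11 above all other libraries of 24 h (0.734%). Those 11 were LAMB3, PLAAT3, SYT12, LGALS1, SEMA6B, ECM1, LMOD1, PTGR1, HTATIP2, F12 and RND2.

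**Figure D1:**
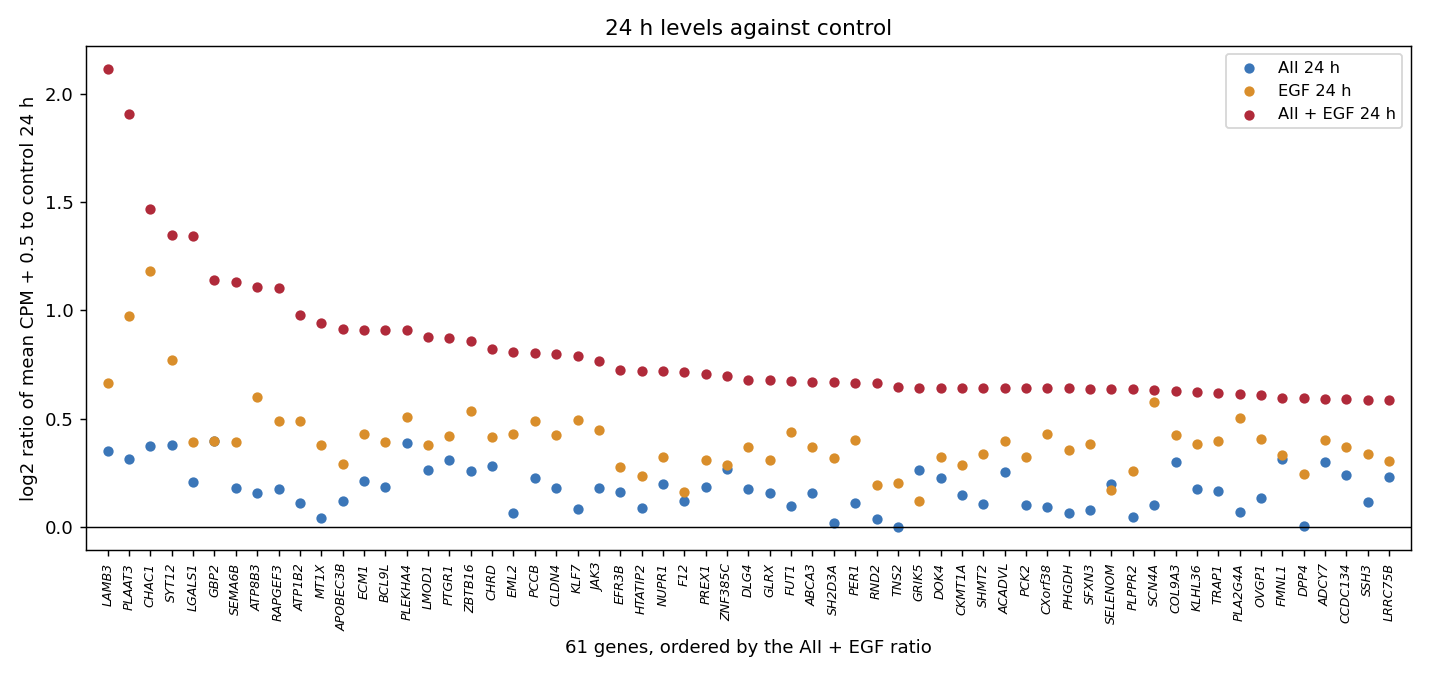
Log2 ratio of mean CPM + 0.5 to control at 24 h (y axis) for AII, EGF and AII + EGF (points, means of 6 libraries each), for the 61 genes in order of the AII + EGF ratio (x axis). The EGF points lie above 0 in 61 genes and above the AII points in 59, and the AII + EGF points, which the rule selected, fall from 2.12 in LAMB3 to 0.59 in LRRC75B.

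The difference between EGF and AII uses no library of the rule and was tested in the edgeR fit over all 48 libraries, where a call needed an adjusted p (Benjamini-Hochberg) under 0.01, a 1.5-fold change and a mean above 5 CPM in the higher group. At 24 h, 0 of 61 genes were called higher under EGF than under AII, as were 0 of all 19337 genes (0%). At an unadjusted p under 0.05, 16 of 61 were higher and 0 lower, against 2.31% and 3.38% of all genes, and DESeq2 also called 0. The log2 change was above 0 in 59 of 61 genes, against 45.9% of all genes and 51.1% of the protein-coding genes at 5 CPM, with a median of 0.23 against -0.02. CHAC1 had the largest change, 0.93 ± 0.26 (SE), with an edgeR adjusted p of 0.42. PLAAT3 followed with 0.82 ± 0.26 and an adjusted p of 0.532. In CHAC1, PLAAT3 and PHGDH every EGF library lay above every AII library, 3 of 61 against 0.233% of all genes. No single gene of the 61 is therefore shown to differ between EGF and AII at 24 h. Leaving out the 10 libraries gave 58 genes above 0, a median of 0.24 and 0 calls.

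At 6 h the same contrast had no common direction. The median log2 change of EGF over AII was -0.03, 29 of 61 were above 0, and 0 were called (0.0259% of all genes were called higher and 0.0879% lower). At an unadjusted p under 0.05, 4 were higher (9.38% of all genes) and 8 lower (6.17%), and DESeq2 called 1 lower. The lower ones included RAPGEF3, NUPR1 and PHGDH. RAPGEF3 ran from 2.44 to 4.61 CPM under AII (median 4.17) and from 1.20 to 2.61 CPM under EGF (median 1.84), with a log2 change of -1.07 ± 0.21 and an edgeR adjusted p of 0.00568, but its mean under AII did not exceed 5 CPM. NUPR1 ran from 6.01 to 23.1 CPM under AII and from 7.21 to 8.45 CPM under EGF (log2 change -1.01 ± 0.23, edgeR adjusted p 0.0244). PHGDH ran from 174 to 336 CPM under AII (median 310) and from 179 to 204 CPM under EGF (log2 change -0.51 ± 0.13, edgeR adjusted p 0.0383). In all 3 genes the lowest AII library was replicate 6, 1 of the 10 doubtful libraries, and without it NUPR1 and PHGDH were called lower under EGF, which makes 2 calls. The AII mean at 6 h also lay above control in all 3 genes. Control, EGF and AII means were 2.37, 1.80 and 4.03 CPM for RAPGEF3 and 11.5, 7.87 and 16.5 CPM for NUPR1. For PHGDH they were 217, 191 and 291 CPM. The control values, which include the doubtful replicates 1 and 2, are given without a test. The difference of EGF over AII between 24 h and 6 h was above 0 in 47 of 61 genes (47.2% of all genes), with a median of 0.26. It was called higher in 0 (0.0621% of all genes) and lower in 0 (0.00517%), with 12 higher (4.42%) and 0 lower (6.52%) at an unadjusted p under 0.05, 0 calls by DESeq2 and 1 call, PHGDH, without AII 6 h replicate 6. The largest was RAPGEF3 with 1.43 ± 0.30 (edgeR adjusted p 0.017).

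Many of the 61 genes were also higher at 24 h than at 6 h in EGF and AII libraries, which the rule did not use. Under EGF, 31 of 61 were called higher at 24 h than at 6 h and 0 lower (50.8% higher, against 7.04% higher and 7.26% lower among all 19337 genes). The median log2 change was 0.93 and 56 of 61 were above 0. Under AII, 21 of 61 were called higher and 0 lower (34.4% higher, against 5.89% higher and 3.18% lower among all genes), with a median of 0.70 and 51 above 0. Of the 31 genes called under EGF and the 21 under AII, 20 were shared, which is 64.5% of the EGF calls and 95.2% of the AII calls. Among the 11048 protein-coding genes at 5 CPM, to which the rule confined the members, 10.9% were called higher under EGF and 8.82% under AII. Every 24 h library lay above every 6 h library in 47 genes under EGF (21.5% of all genes) and in 27 under AII (11.5%).

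Under EGF the lowest adjusted p values of the change with time were those of EML2, SSH3, SH2D3A, PLA2G4A, ATP8B3, KLF7, SEMA6B and SCN4A. EML2 rose from 26.8 to 30.01 CPM at 6 h (median 29.5) to 63.2 to 98.9 CPM at 24 h (median 75.2), a log2 change of 1.27 ± 0.13 (edgeR adjusted p 4.83e-10). ATP8B3, an aminophospholipid-transporting ATPase, rose from 1.14 to 1.85 CPM (median 1.56) to 5.78 to 11 CPM (median 8.69), a log2 change of 2.35 ± 0.28 (edgeR adjusted p 1.01e-08). SEMA6B rose from 2.11 to 2.48 CPM (median 2.33) to 8.37 to 12.5 CPM (median 10.2), a log2 change of 1.99 ± 0.25 (edgeR adjusted p 2.23e-08). In these 3 genes no 24 h library overlapped a 6 h library, and the 6 h libraries, the near-identical replicates 2 and 6 among them, were tightly grouped. KLF7, a zinc finger factor, changed by 1.60 ± 0.20, SCN4A by 1.5 ± 0.20, SH2D3A by 1.13 ± 0.13 and the cofilin phosphatase SSH3 by 1.04 ± 0.12 on the log2 scale.

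Under AII the lowest adjusted p values were those of SSH3, PLA2G4A, ZNF385C, DOK4, CHRD, ATP8B3, LRRC75B and COL9A3. SSH3 rose from 12.2 to 15.4 CPM at 6 h (median 13.3) to 21.6 to 34.9 CPM at 24 h (median 27), a log2 change of 0.95 ± 0.12 (edgeR adjusted p 1.58e-07). CHRD, which encodes the BMP antagonist chordin, rose from 8.47 to 16.1 CPM (median 11.6) to 17.3 to 33.2 CPM (median 30.3), a log2 change of 1.12 ± 0.18 (edgeR adjusted p 6.58e-06). PLA2G4A changed by 1.08 ± 0.15 and ATP8B3 by 1.72 ± 0.29. In SSH3 and CHRD the AII groups of 6 h and 24 h did not overlap.

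A smaller set had changes with time near or below 0 under at least 1 of the single stimuli. LGALS1 changed by -0.16 ± 0.18 under EGF and -0.08 ± 0.19 under AII (edgeR adjusted p 0.473 and 0.747), and TRAP1 by 0.06 ± 0.11 and -0.10 ± 0.11 (0.629 and 0.492). MT1X, a metal-binding metallothionein, changed by -0.35 ± 0.31 and -0.83 ± 0.31 (edgeR adjusted p 0.352 and 0.0302). PHGDH was higher at 24 h under EGF, by 0.46 ± 0.13 (edgeR adjusted p 0.00357, under 1.5-fold), and changed by -0.34 ± 0.13 under AII (0.0367). In control, the log2 ratio of 24 h over 6 h in the libraries of the rule was -0.19 for LGALS1, -0.25 for TRAP1, -0.79 for MT1X and 0.22 for PHGDH, against 0.87 for EML2 and 1.39 for ATP8B3. Several low members, among them LAMB3, CHAC1 and JAK3, had an edgeR adjusted p under 0.01 in both comparisons and were not called because their 24 h means did not exceed 5 CPM. Without the 5 CPM minimum, 43 genes were called under EGF and 35 under AII.

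**Figure D2:**
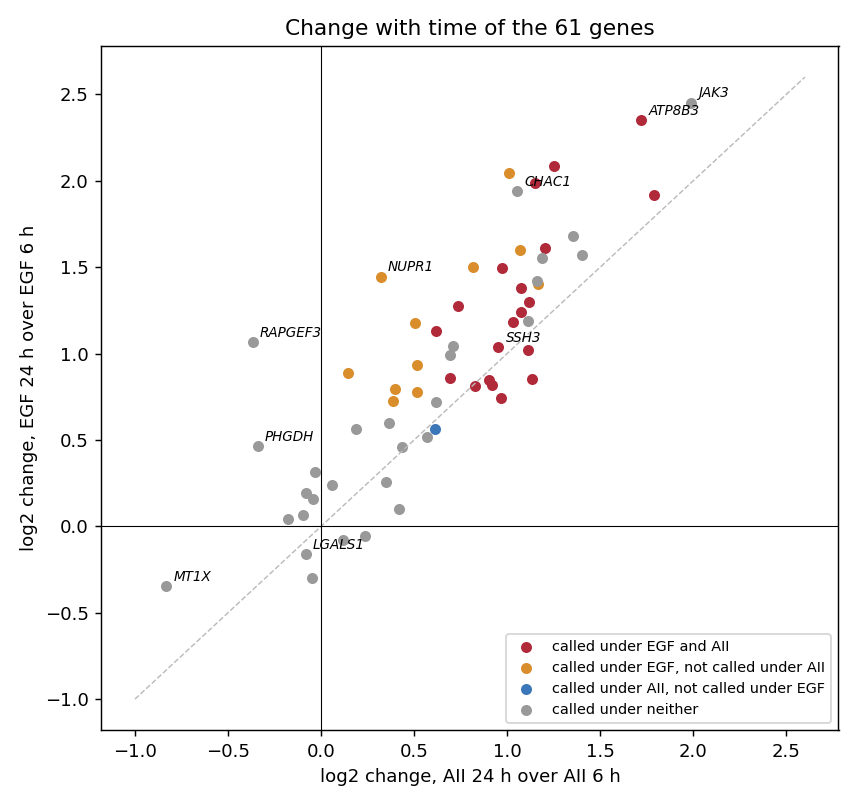
Log2 change from 6 h to 24 h under EGF (y axis) against the same under AII (x axis) in the edgeR fit, 1 point for each of the 61 genes, coloured by whether the gene was called. Most points lie at the upper right, 31 called under EGF and 21 under AII, with MT1X at the lower left and RAPGEF3 and PHGDH above 0 under EGF and below 0 under AII.

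Control cells moved in the same direction. With the 4 control libraries of 6 h in the rule, the control mean was higher at 24 h than at 6 h in 55 of 61 genes, with a median log2 ratio of 0.64 (-0.79 to 1.56). With all 6 control libraries of 6 h, the edgeR fit gave a median log2 change of 0.37, with 51 above 0, and called 2 higher and 0 lower (1.38% and 0.445% of all genes). Among the named members, the log2 ratio with the 4 libraries of the rule was highest in ZNF385C (1.56), GBP2 (1.49) and SEMA6B (1.43) and lowest in MT1X (-0.79). The rule's ratio at 24 h is thus measured against a control level that was itself higher than at 6 h in most of the 61 genes. The median level of the 61 genes in each library, as a log2 difference from the mean of the EGF and AII libraries, ran from -0.26 to 0.29 in control 24 h (median 0.05), -0.02 to 0.43 in AII 24 h (0.19), 0.24 to 0.62 in EGF 24 h (0.44) and 0.68 to 0.88 in AII + EGF 24 h (0.82). The place of the AII + EGF libraries on this measure, above those of the other 24 h groups, follows from the rule. AII libraries overlapped both control and EGF libraries.

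The control libraries of 6 h outside the rule stood apart. Control 6 h replicates 1 and 2 had a median level of 0.25 and -0.03, while the group as a whole started at -0.71. Relative to the mean of the 4 control libraries in the rule, replicate 1 was higher by a median log2 difference of 0.85, with 59 of 61 genes above, and replicate 2 by 0.59, with 57 above. They therefore stood at the level of 24 h libraries, and they are the 2 control libraries that were near-identical to an EGF and an AII library of 24 h. With all 6 control and all 6 AII + EGF libraries at 6 h, the rule gave 73 genes, of which 26 were among the 61. Leaving out the 10 doubtful libraries, edgeR called 32 genes higher with time under EGF and 23 under AII.

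**Figure D3:**
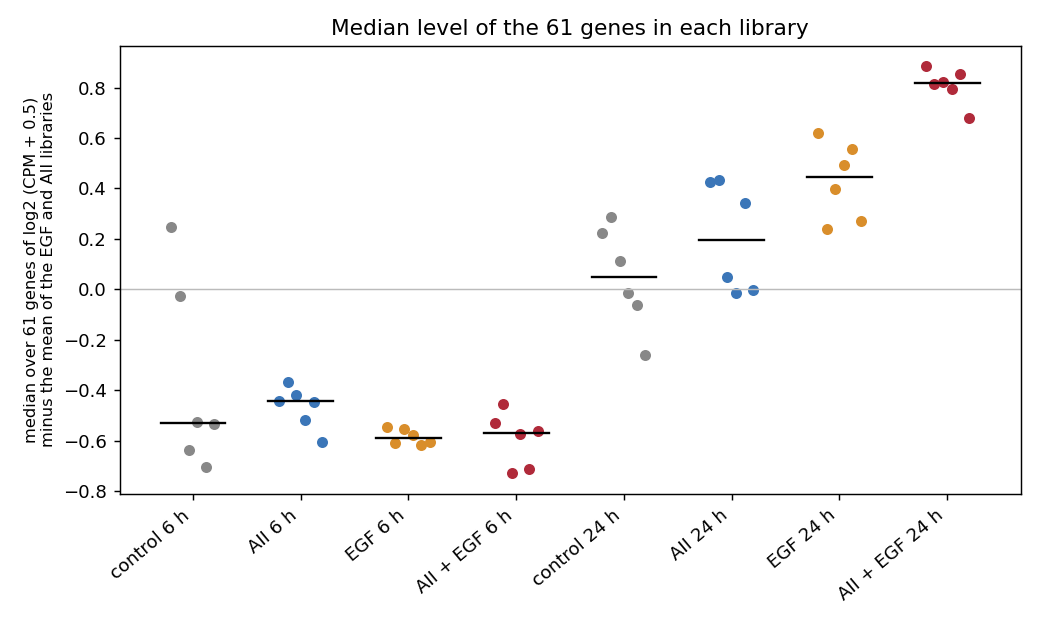
Median over the 61 genes of log2 (CPM + 0.5) minus each gene's mean over the EGF and AII libraries (y axis), 1 point for each of the 48 libraries by group (x axis), with the group median as a line. The medians rise at 24 h from 0.05 in control to 0.82 under AII + EGF, the group whose level the rule selected, and the pair of high points in control 6 h, at 0.25 and -0.03, are replicates 1 and 2.

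The lists of pathway genes drawn up for this series held 4 members in 1 case, the amino acid supply and ATF4 genes, and at most 1 in any other. ATF4 is the transcription factor of the amino acid response, and its targets include enzymes of serine synthesis, amino acid transporters and tRNA synthetases. Of its 40 genes 38 were tested, and the members among them were CHAC1, PHGDH, SHMT2 and NUPR1. For AII + EGF over control, 12 were called higher and 1 lower at 6 h (4.49% and 4.71% of all genes) and 7 higher and 0 lower at 24 h (1.33% and 1.12% of all genes), of which 3 were members. The 12 at 6 h included SLC6A9 (log2 change 1.84 ± 0.22), SLC7A11 (1.79 ± 0.25), SLC7A5 (1.59 ± 0.16) and PSAT1 (1.08 ± 0.12), transporters of glycine, cystine and large neutral amino acids and an enzyme of serine synthesis. That 0 of the 12 were members was largely fixed by the rule, which kept members near control in this contrast. ASNS, asparagine synthetase, was called at 24 h (1.26 ± 0.26). These values share libraries with the rule.

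In the contrasts without libraries of the rule, EGF over AII at 6 h had 3 genes of the ATF4 list called lower and 0 higher (0.0879% and 0.0259% of all genes), SLC6A9 (-1.68 ± 0.22), SLC7A11 (-1.44 ± 0.24) and PSAT1 (-0.96 ± 0.12), and the same 3 were called higher in the difference between 24 h and 6 h (0.0621% of all genes). At 24 h 0 were called for EGF over AII, with a median of 0.26. With time, 7 were called higher and 5 lower under EGF (7.04% and 7.26% of all genes), and 2 higher and 10 lower under AII (5.89% and 3.18%). Of the 4 members in the list, PHGDH, NUPR1 and SHMT2 had their highest 6 h mean under AII, whereas CHAC1 had it in control (1.43 CPM, and 1.06 CPM under AII). For CHAC1 this rests on the doubtful control replicates 1 and 2 (3.05 and 1.67 CPM). Its control replicates 3 to 6 lay between 0.737 and 1.09 CPM, so a higher level in control than under AII is not shown. PCK2 also had its highest 6 h mean under AII (median 34.8 CPM, and 22.9 CPM under EGF). It encodes the mitochondrial PEP carboxykinase and is outside the list. For EGF over AII at 6 h the edgeR adjusted p of PCK2 was 0.252, so a difference is not shown.

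The 61 transcripts were rich in G and C. The GC content of the canonical transcript had a median of 57.9% (39 to 67.9%), against 48% for the 11002 protein-coding genes at 5 CPM that have a transcript. By tertiles of GC content, 4 of 3668 genes in the low tertile were members, 14 of 3667 in the middle tertile and 43 of 3667 in the high tertile. The median 24 h ratio of all genes in these tertiles also moved with GC content, from -0.07 in the low tertile to 0.06 in the high tertile. Their median 6 h ratio, in the libraries of the rule, moved the other way and further, from -0.002 in the low to -0.22 in the high tertile. The other 258 genes past the 24 h limits had a median of 57.4%, so GC content was not particular to the genes that were flat at 6 h. Transcript length had a median of 3095 bases among the 61 and 3580 among the protein-coding genes at 5 CPM.

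In the contrasts outside the rule, genes of the high GC tertile and the 61 genes were set side by side. Under EGF, 15.7% of the high tertile were called higher with time against 53.5% of the 43 members in it, and under AII 15.4% against 41.9%. For EGF over AII at 24 h, the high tertile had a median log2 change of -0.03 and the members in it 0.23, with opposite sign. After a correction for GC content in each library, which was added after seeing the data, 31 genes were called higher with time under EGF and 18 under AII, and the rule gave 55 genes, of which 40 were among the 61. Whether GC content contributes to the 24 h or the 6 h ratio of single genes was not tested.

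**Figure D4:**
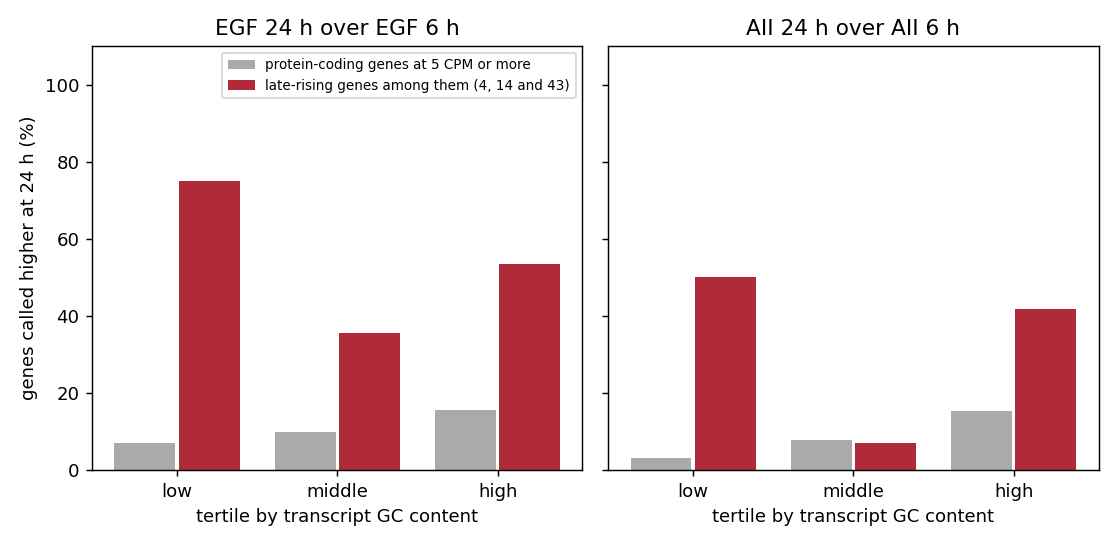
Percent of genes called higher at 24 h than at 6 h by edgeR (y axis) in tertiles of transcript GC content (x axis), for protein-coding genes at 5 CPM or more (grey) and for the late-rising genes among them (red, 4, 14 and 43 genes), under EGF (left) and AII (right). In the high tertile the red bars stand at 53.5% and 41.9% and the grey bars at 15.7% and 15.4%, and the low tertile holds only 4 members.

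The promoters of members were searched for the sites of transcription factors that the study examined. RefSeq promoters (GRCh38.p14, 250 bases before to 50 bases after the start site) were matched for 45 of the 61 genes. On either strand, the AP-1 site TGANTCA was found in 3 of 45 (6.67%), namely ECM1, CLDN4 and ADCY7, against 3.83% of the 9091 promoters of protein-coding genes at 5 CPM and 7.71% of all 35116 promoters. The EGR site CGCCCCCGC was found in 3 (6.67%), namely PTGR1, PCK2 and PREX1, against 8.9% at 5 CPM and 5.07% of all. The CRE TGACGTCA was found in 1 (TRAP1; 2.22%, against 3.53% at 5 CPM and 1.85% of all), and the amino acid response element TGATGNAAT in 1 (FUT1; 2.22%, against 0.407% and 0.991%). The E-box CACGTG was found in 4 (DPP4, HTATIP2, CKMT1A and PER1; 8.89%, against 10.3% and 7.26%) and the CArG box of SRF in 0 (1.09% and 1.29%). The longer AP-1 form TGAGTCAG, which contains a TGANTCA match, was found in 0 (0.968% and 1.65%). For AP-1, EGR, the CRE and the E-box, the members lay on opposite sides of these 2 shares. With 45 promoters, 1 match more or less moves a share by 2.22 percentage points. A match is a run of letters and no measured site.

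The promoters of ECM1 (chr1:150507859-150508158, plus strand), CLDN4 (chr7:73830746-73831045, plus strand), PCK2 (chr14:24094061-24094360, plus strand) and LAMB3 (chr1:209652376-209652675, minus strand) are shown because they hold a pair of AP-1 sites each, an EGR site, and, for the gene with the largest ratio, no match to either. Sequences run 5′ to 3′ on the strand of the gene, and capitals mark the AP-1 sites in ECM1 and CLDN4 and the EGR site in PCK2.
ECM1 promoter: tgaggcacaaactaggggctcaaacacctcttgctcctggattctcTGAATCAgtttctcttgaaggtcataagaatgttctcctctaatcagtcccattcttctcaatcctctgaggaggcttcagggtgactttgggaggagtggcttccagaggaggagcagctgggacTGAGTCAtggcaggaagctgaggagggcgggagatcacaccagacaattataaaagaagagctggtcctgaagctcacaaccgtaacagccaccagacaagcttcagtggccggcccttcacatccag
CLDN4 promoter: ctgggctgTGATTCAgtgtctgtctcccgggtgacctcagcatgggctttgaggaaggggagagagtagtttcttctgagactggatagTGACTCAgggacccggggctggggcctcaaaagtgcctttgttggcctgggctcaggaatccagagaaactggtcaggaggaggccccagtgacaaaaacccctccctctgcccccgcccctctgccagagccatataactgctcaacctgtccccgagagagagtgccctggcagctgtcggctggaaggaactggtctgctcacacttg
PCK2 promoter: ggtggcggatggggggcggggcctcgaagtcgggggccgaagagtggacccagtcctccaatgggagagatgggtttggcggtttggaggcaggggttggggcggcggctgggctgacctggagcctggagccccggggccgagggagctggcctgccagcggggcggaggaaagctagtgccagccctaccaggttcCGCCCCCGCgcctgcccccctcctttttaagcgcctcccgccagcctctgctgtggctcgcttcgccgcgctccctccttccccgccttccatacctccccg
LAMB3 promoter: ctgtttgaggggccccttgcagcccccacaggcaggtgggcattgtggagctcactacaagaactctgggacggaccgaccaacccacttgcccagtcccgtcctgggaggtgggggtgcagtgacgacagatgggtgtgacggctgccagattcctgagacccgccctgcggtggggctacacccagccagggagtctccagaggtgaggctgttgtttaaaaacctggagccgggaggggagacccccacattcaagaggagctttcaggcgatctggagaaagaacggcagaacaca
CLDN4, which encodes the tight junction protein claudin-4, ran from 2.15 to 4.05 CPM in control and from 4.87 to 6.37 CPM under AII + EGF at 24 h. ECM1 and LAMB3, with and without AP-1 letters in this window, both had AII + EGF libraries above all other 24 h libraries. Whether these letters matter for the response was not tested. The 45 matched promoters were not richer in G and C than others, with a median of 66.3% against 66.0% for the protein-coding genes at 5 CPM, in contrast to the transcripts of the 61. Chromosome 19 held 9 (14.8% of members, 6.83% of the protein-coding genes at 5 CPM), chromosome 17 held 8 (13.1% against 6.07%), chromosome 1 held 7 (11.5% against 10.4%), chromosome 16 held 7 (11.5% against 4.45%), chromosome 11 held 6 (9.84% against 5.57%) and chromosome 22 held 5 (8.2% against 2.38%).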

How the data were processed

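The authors sequenced poly(A) RNA of 48 libraries, mapped the reads to hg38 with HISAT2 2.1.0, counted fragments per gene with featureCounts, and the deposited values are raw counts. Strandedness is not given in the sources used here. The study gives 5 samples for each condition, whereas the labels hold 6 libraries per group, all of which were used here except where stated. Groups come from the labels, and replicate numbers follow the order of deposition.

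From the deposited counts, CPM was computed on library totals, and the 61 genes were selected on group means. The members and lists were chosen with earlier results of these data known. Counts were tested with edgeR 4.0.16 in R 4.3.3 (filterByExpr by group, TMM factors, 1 quasi-likelihood fit over all 48 libraries, 19337 genes, all 61 members among them). Calls needed an adjusted p (Benjamini-Hochberg) under 0.01, a 1.5-fold change and over 5 CPM. A pseudocount of 0.5 CPM was used for ratios. DESeq2 1.42.0 and other settings served as alternatives. On data simulated for EGF 24 h over EGF 6 h (18896 genes), edgeR recovered 93 of 100 genes changed 2-fold and 100 of 100 changed 4-fold, with 2 false calls. For the difference of EGF over AII between 24 h and 6 h it recovered 79 and 100, with 2 false calls. The changed genes had means above 10 CPM and the simulated libraries were independent. Recovery is thus not known for members of lower abundance, and 20 of 61 lay below 10 CPM under AII + EGF at 24 h.

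Named genes were the 15 largest 24 h ratios, the 5 highest CPM per kilobase, up to 8 called members per test and direction, up to 4 members of a list with at least 2, the members and genes at each limit, and the 10 highest and 5 lowest EGF shares; further members were named after their values were seen. Lengths and GC content come from canonical GENCODE transcripts, positions and promoters from RefSeq (GRCh38.p14). Library size limits the precision of genes under 10 CPM most.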

Additional observations from a re-analysis of the deposited data

Results flagged for a closer look

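Among 344 groups of libraries (8 groups for each of 43 named members), 19 had 1 library farther from the rest than Dixon's limit at 95%, and chance alone marks about 1 group in 20. AII 6 h replicate 6, which lay near the AII + EGF libraries, was marked in 6 genes: it was low in GBP2 (0.829 CPM, others 2.39 to 3.01), RAPGEF3 (2.44 CPM, others 4.15 to 4.61), PHGDH (174 CPM, others 292 to 336) and CXorf38 (16.3 CPM, others 24.9 to 28.2), and high in MT1X (10.4 CPM, others 3.51 to 5.95) and ACADVL (118 CPM, others 56.1 to 72.4). EGF 6 h replicate 2, taken as the mean with its near-identical replicate 6, was high in ACADVL (102 CPM), COL9A3 (32.8 CPM) and LRRC75B (10.3 CPM) and low in APOBEC3B (1.12 CPM). Control 24 h replicate 6 was low in ATP1B2 (1.26 CPM, others 4.22 to 5.96), APOBEC3B (1.97 CPM, others 2.95 to 3.46) and ZNF385C (2.23 CPM, others 6.93 to 8.28), and without this library the rule gave 53 genes, of which 45 were among the 61. In ATP1B2 and ZNF385C, replicate 6 was also the lowest library of the other 24 h groups. In APOBEC3B it was the lowest under AII and AII + EGF, but not under EGF.

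Single marks were PLAAT3 in EGF 24 h replicate 6 (4.23 CPM, high), CHAC1 in AII 6 h replicate 5 (0.717 CPM, low), SYT12 in AII + EGF 6 h replicate 2 (2.94 CPM, high), SEMA6B in EGF 6 h replicate 4 (2.11 CPM, low), FUT1 in EGF 6 h replicate 5 (5.21 CPM, high) and SELENOM in control 24 h replicate 3 (25.7 CPM, high).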

How the results depend on the processing

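The number of members, 61 in the rule as given, was 9 with a 24 h log2 ratio of at least 1 and 132 with a mean of at least 1 CPM, and lay between 53 and 77 when 1 library of 24 h was left out. It was 66 with TMM-scaled CPM (54 shared), 61 with a pseudocount of 2 (44 shared), 73 with all libraries of 6 h (26 shared) and 55 with the correction for GC content (40 shared), so which genes pass depends on these choices more than how many. For EGF over AII at 6 h, where 0 genes were called, 1 was called lower at an adjusted p under 0.05, without the 5 CPM minimum, with DESeq2 and without the 10 doubtful libraries, 2 were called lower without the 2 libraries near another label and with the GC correction without the 10, and 0 to 2 when 1 library was left out. For the difference of that contrast between 24 h and 6 h, 1 was called without the 2 libraries, with the GC correction and with both the GC correction and the 10 left out, and 0 to 1 when 1 library was left out. For AII 24 h over 6 h, 35 were called without the 5 CPM minimum, and 18 to 24 when 1 library was left out; for EGF 24 h over 6 h the latter range was 30 to 34, and for EGF over AII at 24 h it was 0. The cause was not tested. Counts of calls or of members moved by over 1.5 times, or between 0 and another count, in 14 of the 160 alternatives. Counts that stayed at 0 were taken as unmoved. Of the values of single called genes 1321 kept the call and 31 lost it, mostly GRIK5 and F12. With a pseudocount of 2 the log2 ratio was 1.67 for LAMB3 and 1.31 for PLAAT3. Totals in place of TMM moved the median of all genes by 0.16 (log2) for EGF 24 h over 6 h. No paired analysis was made, because the labels give no replicate numbers. At 24 h, replicate 6, the last deposited, was the lowest library of every group in JAK3 and the highest of every group in ACADVL. Such shifts shared across groups were not modelled, so they are part of the spread in SDs, ranges and p-values. Genes under 10 CPM carry the largest counting error.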
